A study of Mus musculus with 16 samples.

Results

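The genes described here are those whose symbol is Cd followed by a digit, the mouse names of antigens that carry a cluster of differentiation (CD) number, with the chains of CD3 and CD8 included. The deposited table names 8552 genes on 17850 rows, and 51 of the names match. Cd2ap and Cd2bp2 match by their letters only, since they encode intracellular proteins that bind CD2, and Cd5l encodes a secreted protein. Besides their letters, the genes were selected on the authors' Th17 fold change, since every name in the table has a negative value for Sin3A deficient against sufficient Th17 cells. That comparison is therefore given as a description, and CD genes that were higher there are not covered. Just inside this limit stood Cd164, Cd1d2 and Cd97, with log2 fold changes of -0.00249, -0.025 and -0.038 in the authors' deposited table. Per-library values could be joined to 46 of the 51 names, and 40 of these could be restored in all 16 libraries.

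Poly(A) RNA came from CD4 T cells purified from C57BL/6 J mice aged 2 months with the genotype Rosa26-CreERT2 +/- Sin3A F/F. This genotype was common to all groups: Sin3A, a scaffold protein on which corepressors with histone deacetylases assemble, is flanked by loxP sites, and Cre is active only in the presence of tamoxifen and is expressed from the ubiquitous Rosa26 locus. IL-7 sufficient cells were held for 6 days with the survival cytokine IL-7, and IL-7 deficient cells for 6 days with IL-7 and tamoxifen. Th17 sufficient and Th17 deficient cells came from the same 2 treatments followed by 3 days under conditions that polarize towards the Th17 state of helper T cells, named for IL-17. Each group held 4 libraries, which are BASAL955, BASAL957, BASAL959 and BASAL960 for IL-7 sufficient cells, BASALTAM with the same numbers for IL-7 deficient cells, and likewise D3 and D3TAM for Th17 sufficient and deficient cells. The third library of each group is labelled female and the others male. Tamoxifen and deletion go together in each comparison of deficient with sufficient cells and cannot be told apart. The labels do not say that equal numbers are 1 mouse or that the libraries are from different mice. The p-values therefore measure how far these samples spread, and part of that spread may be technical.

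CD molecules are proteins that antibodies recognize on the surface of blood cells, and they were numbered in the order of their description, not by function. On CD4 T cells the T cell receptor signals through the CD3 chains and the zeta chain encoded by Cd247, while CD4 binds MHC class II. Costimulatory receptors such as CD27 and CD2, adhesion receptors such as CD44, and tetraspanins, which organize membrane domains, tune that signal. Naive T cells are known for high CD27 and low CD44, and activated and memory T cells for high CD44.

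The promoters of Cd3d, Cd3e and Cd247 are shown first. Their products belong to 1 complex, and these genes fell together on polarization, as given below. Cd3g, which encodes the CD3 gamma chain, carries no name in the deposited table and is not covered. Promoter sequences were read by gene symbol from the RefSeq table of build GRCm38.p6, which held 32 of the 51 genes and is not the build of the authors, NCBIM37. The 250 bases before the first listed start are printed 5′ to 3′ on the strand of the gene. Capitals mark 6-letter matches on either strand to AGGAAG, the core of many ETS family sites, TGTGGT, the core of Runt family sites, CANNTG, the E-box, which reads the same on both strands, and TATAAA, the TATA box.
Cd3d (chr9:44981536-44981785, plus strand): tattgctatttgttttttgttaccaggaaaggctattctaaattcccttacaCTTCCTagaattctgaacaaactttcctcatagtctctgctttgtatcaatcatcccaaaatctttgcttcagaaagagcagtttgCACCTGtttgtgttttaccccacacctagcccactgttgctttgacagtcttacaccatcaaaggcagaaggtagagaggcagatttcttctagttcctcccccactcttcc
Cd3e (chr9:45009612-45009861, minus strand): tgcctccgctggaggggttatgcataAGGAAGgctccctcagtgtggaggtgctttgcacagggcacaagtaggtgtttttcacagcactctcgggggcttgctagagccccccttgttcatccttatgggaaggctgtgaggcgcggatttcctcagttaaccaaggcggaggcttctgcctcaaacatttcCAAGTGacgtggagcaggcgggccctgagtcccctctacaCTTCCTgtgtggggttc
Cd247 (chr1:165788431-165788680, plus strand): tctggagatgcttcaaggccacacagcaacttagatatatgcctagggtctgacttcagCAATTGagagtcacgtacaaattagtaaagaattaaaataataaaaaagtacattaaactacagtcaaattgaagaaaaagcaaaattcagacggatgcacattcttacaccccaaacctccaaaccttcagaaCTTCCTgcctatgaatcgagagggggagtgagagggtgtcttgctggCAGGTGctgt

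All 3 windows held an AGGAAG match and a CANNTG match and none of the other motifs, and no matches overlapped. Over the 32 genes, AGGAAG was found in 15 (46.9%, against 29.2% of the 27025 promoters in the table) and CANNTG in 27 (84.4%, against 66.0%). TGTGGT was found in 6 (18.8%, against 14.2%), and TATAAA in 0 of the 32, against 13.0% of all promoters. A match is a description of the letters and not of binding. The count of CG pairs in the window was 0 for Cd3d, 7 for Cd3e and 3 for Cd247, with a median of 4.5 over the 32 genes and 6 over all promoters. In the RefSeq order of protein-coding genes, Cd3d and Cd3e are direct neighbours on chromosome 9, as are Cd8b1 and Cd8a on chromosome 6 and Cd200r1 and Cd200r4 on chromosome 16.

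Values below are normalized counts, that is, reads divided by the size factor of each library, restored from deposited numbers that had lost their decimal points. Values in a row of 4 follow that order of libraries, from BASAL955 to BASAL960 and likewise for the other groups. Restored totals were 19743231 to 28590579 reads per library. The targeted gene, Sin3a, ran from 2213 to 2761 in IL-7 sufficient and from 2148 to 2358 in IL-7 deficient libraries, which overlapped. In Th17 cells it ran from 1892 to 2271 in sufficient and from 1727 to 1827 in deficient libraries, which did not. Sin3a is itself named by a negative Th17 fold change. Deficient libraries lay below all sufficient ones for 44.9% of the 7751 named genes with a joined row. Since the floxed exons are not named in the labels, reads over the whole gene need not follow the deletion. The CD4 T cell label was met in every library: Cd4 was at least 5632 and Cd3e at least 5133. For the 40 restored genes D3960, a Th17 sufficient library, was the highest of its group for 22 of the 40 (55.0%), against 28.6% of all rows tested. The fold change by which the genes are named uses D3960, and the share over named rows was not counted. BASALTAM960 was the highest of its group for 16 of the 40, against 28.8% of all rows. The other libraries of that number were near the share of all rows: BASAL960 was the highest for 16, against 37.9%, and D3TAM960 for 10, against 25.2%. The median coefficient of variation within a group ran from 10.6% to 23.3% over the 40 genes, highest in Th17 deficient libraries, beside 8.84% to 13.4% over all rows.

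Th17 polarization was compared with IL-7 culture separately in sufficient and in deficient cells. In sufficient cells 27 of the 40 genes fell and 9 rose (limma on log2 of the normalized count + 1, adjusted p under 0.05 over 14145 rows), while 40.7% of all rows fell and 36.4% rose. Among the 6614 rows that carry a name, 36.4% fell and 40.7% rose. The median log2 change of the 40 was -0.76, beside -0.06 over all rows tested and 0.05 over named rows. In deficient cells 30 of the 40 fell and 5 rose, with 40.7% and 38.2% of all rows and 51.0% and 28.6% of named rows, and the median was -1.19, beside -0.04 over all rows and -0.35 over named rows. Both comparisons share their Th17 libraries with the choice of the names, which takes genes that are low in deficient Th17 cells. The counts over the lists by role below, of at most 10 tested genes each, stand beside these shares and are a description. In these bulk libraries fewer cells of a type and less RNA per cell cannot be told apart. The plot of the polarization changes gives all 40 genes in both kinds of cell.

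**Figure D1:**
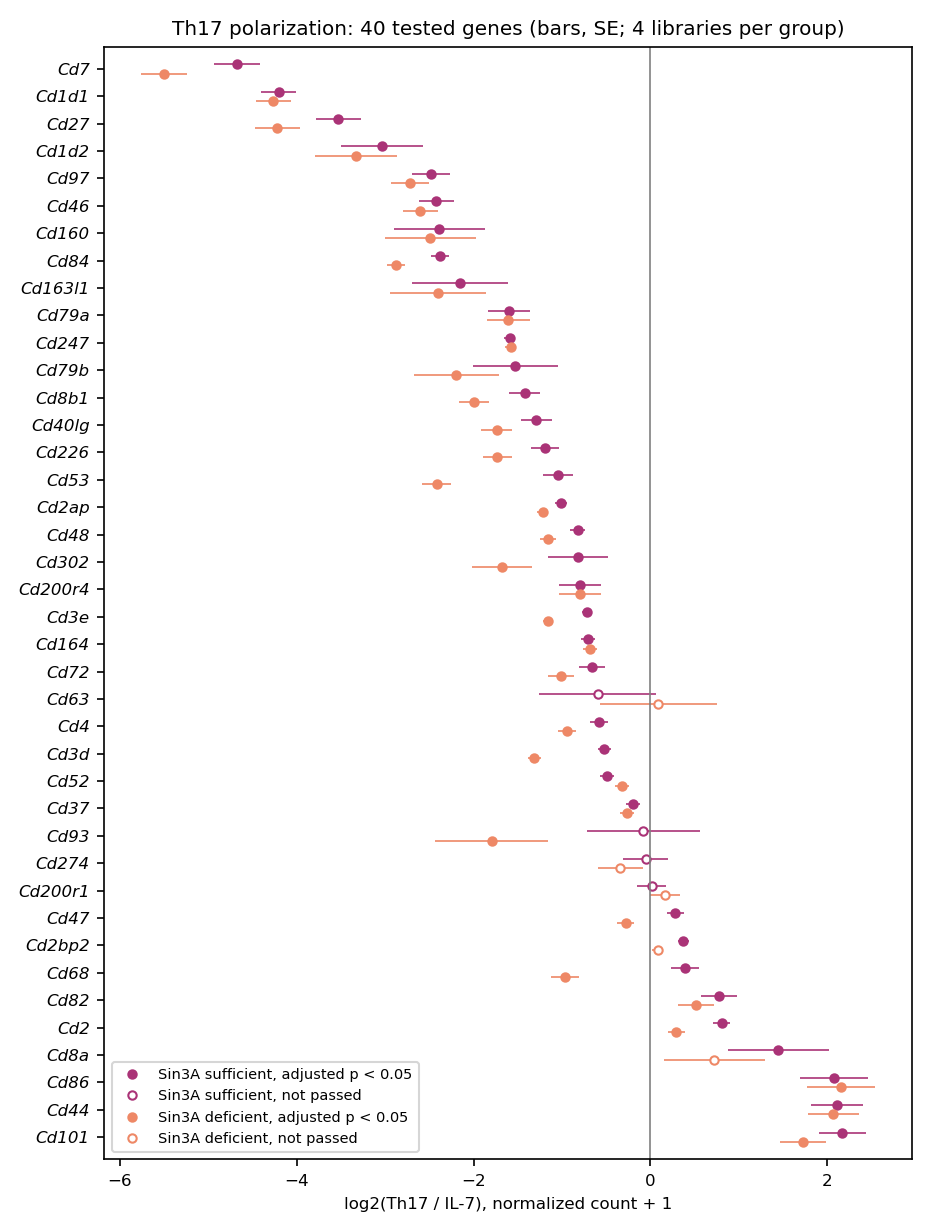
Log2 changes (x axis, Th17 over IL-7, normalized count + 1) of the 40 tested genes (y axis) in Sin3A sufficient and deficient cells, as points with bars of 1 SE from 4 libraries per group; open points did not pass an adjusted p of 0.05. Cd7, Cd1d1 and Cd27 lie farthest to the left in both kinds of cell, and Cd101, Cd44 and Cd86 farthest to the right.

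The tested genes of the T cell receptor complex and its coreceptors, without Cd3g, fell on polarization, except for Cd8a. In sufficient cells 5 of the 6 tested genes fell and Cd8a rose; in deficient cells the same 5 fell and Cd8a did not pass. Cd3e, the CD3 epsilon chain, stood at 12982, 12107, 12482 and 11147 in IL-7 sufficient libraries and at 7392, 7419, 7042 and 7662 in Th17 sufficient libraries. All 4 polarized libraries lay below all 4 unpolarized ones, a log2 change of -0.72 (SE 0.06, limma adjusted p = 3.59e-09). In deficient cells Cd3e went from 11889.5, 11643, 12080.1 and 11482 to 5198, 5378, 5366 and 5133, again without overlap, a change of -1.16 (SE 0.06, limma adjusted p = 1.03e-11). Cd3d, the CD3 delta chain, went from 9390.0, 8742, 8435 and 7925 to 5686, 5902, 5529 and 6986 in sufficient cells, a fall without overlap (-0.52, SE 0.07, limma adjusted p = 5.81e-06). The deficient libraries of Cd3d went from 7803, 7443, 7572 and 7616 to 3305, 2886, 3045 and 3028, also without overlap (-1.31, SE 0.07, limma adjusted p = 6.42e-11). Their promoters are printed above, with that of Cd247.

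Cd247, the zeta chain that carries most of the signalling motifs of the receptor, fell in both kinds of cell. It went from 11522, 10604, 10305 and 11414 to 3824, 3677, 3493 and 3532 in sufficient libraries and from 10550.0, 10081, 10332 and 9619 to 3394, 3599, 3105 and 3479.8 in deficient libraries. The log2 changes were -1.59 and -1.58 (SE 0.06 each, limma adjusted p = 9.83e-13 and 9.67e-13), and the groups did not overlap. Cd4, the coreceptor for MHC class II, went from 14028, 12748, 11993 and 9335 to 9134, 7630.4, 6809 and 8438 in sufficient cells (-0.58, SE 0.11, limma adjusted p = 8.38e-05). All polarized libraries lay below the unpolarized ones, with BASAL960 the lowest of the unpolarized ones and next to them. In deficient cells Cd4 went from 11813, 11226, 11210.1 and 11593 to 5947, 6310.2, 5632 and 5930.2, far from overlap (-0.95, SE 0.11, limma adjusted p = 2.79e-07).

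**Figure D2:**
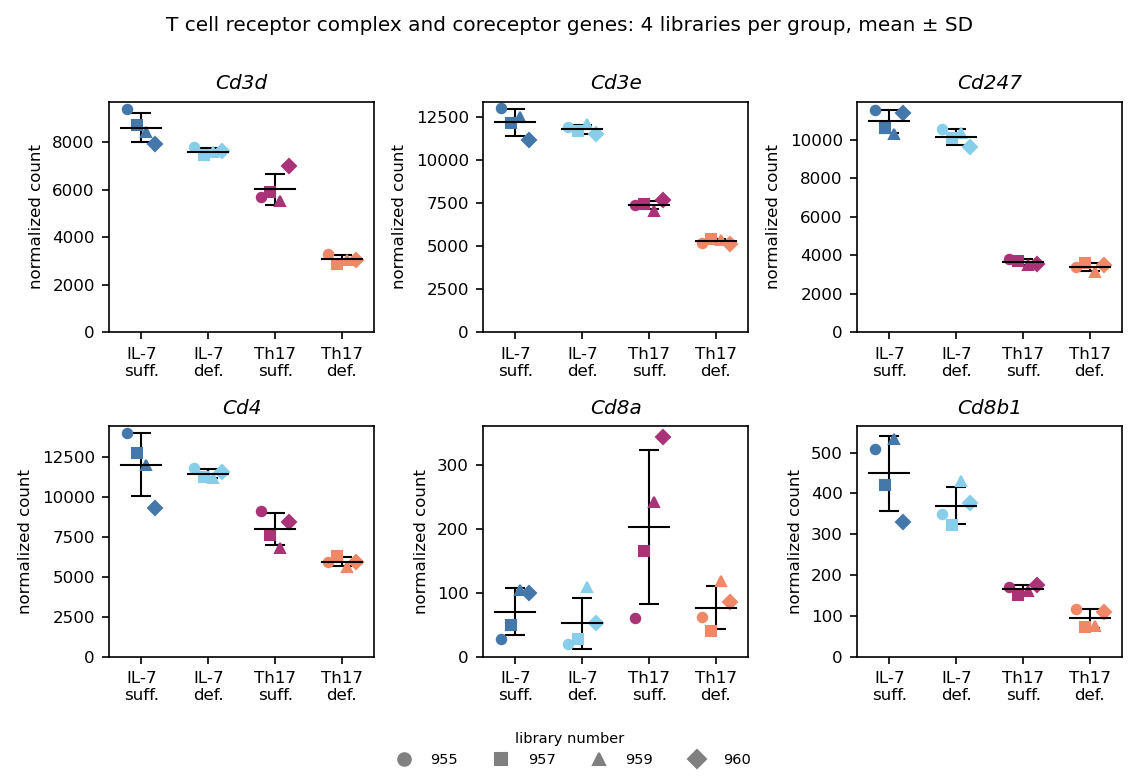
Normalized counts (y axis) of 6 T cell receptor complex and coreceptor genes in the 4 groups (x axis), with 1 point per library, shaped by library number, and bars for mean ± SD of 4 libraries. Polarized libraries lie below unpolarized ones for every gene but Cd8a, whose Th17 sufficient libraries spread from 60.2 to 344.

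The CD8 chains, which form the coreceptor for MHC class I and mark cytotoxic T cells, differed in direction in sufficient cells. Cd8b1, the beta chain, fell from 510.0, 421, 534 and 331 to 171, 150.3, 162 and 175 in sufficient libraries and from 349, 323, 430.0 and 377 to 116, 73.3, 74.7 and 110.2 in deficient libraries. Neither pair of groups overlapped, and the changes were -1.42 and -1.99 (SE 0.17 each, limma adjusted p = 1.03e-06 and 1.31e-08). Cd8a, the alpha chain, went the other way in sufficient cells, from 28.0, 49.8, 104 and 99.7 to 60.2, 165, 243 and 344, where the groups overlapped and each polarized library was above the unpolarized one of its number (1.44, SE 0.57, limma adjusted p = 0.0291). Its call was lost without BASAL955 (adjusted p = 0.107), BASAL957 (0.066), D3959 (0.0771) or D3960 (0.105), and without the 4 libraries numbered as D3957 (0.105) or as D3960 (0.0815). In deficient cells Cd8a went from 19.96, 28.2, 108 and 52.4 to 61.5, 40.01, 119 and 85.3, which overlapped and did not pass (0.72, limma adjusted p = 0.253). Each polarized library was above the unpolarized one of its number there too, and the fit with the number as a block called Cd8a higher (limma adjusted p = 0.0335).

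The costimulation and adhesion receptors of T cells held both deep falls and clear rises. Of their 10 tested genes 6 fell and 3 rose, in sufficient and in deficient cells alike. Of named rows 36.4% fell and 40.7% rose in sufficient cells, and 51.0% fell and 28.6% rose in deficient cells. The counts in deficient cells are near these shares. Cd7, a costimulatory immunoglobulin family receptor of T cells, had the lowest log2 change of the 40: it stood at 750.0, 895, 900.1 and 844 in IL-7 sufficient and at 20.7, 25.6, 35.7 and 56.4 in Th17 sufficient libraries. The log2 change was -4.67 (SE 0.26, limma adjusted p = 7.48e-11) and the groups were far apart. In deficient cells Cd7 went from 508, 606, 644 and 846 to 9.66, 14.2, 11.5 and 18.9, a change of -5.50 (SE 0.26, limma adjusted p = 8.33e-12). Cd27, a TNF receptor family costimulator that naive T cells carry, went from 9669, 7865, 8625 and 3930.0 to 819, 539.9, 543 and 598 in sufficient cells. BASAL960 was the lowest of the IL-7 sufficient libraries by far, and the groups did not overlap (-3.53, SE 0.25, limma adjusted p = 1.61e-09). The deficient libraries of Cd27 went from 9963, 9006, 9620.5 and 8265 to 309, 708, 585 and 463 (-4.22, SE 0.25, limma adjusted p = 1.37e-10).

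The SLAM family genes Cd84 and Cd48, which encode homophilic and CD2-binding adhesion receptors of leukocytes, fell as well. Cd84 went from 4309 ± 524 to 825 ± 77.7 in sufficient cells (mean ± SD, n = 4; -2.38) and from 4233 ± 236 to 578 ± 78.7 in deficient cells (-2.88). Cd48 changed by -0.82 and -1.16, and Cd226, an activating receptor for nectin family ligands, by -1.19 and -1.73. Cd160, a receptor of NK and CD8 T cells, was lower throughout: IL-7 sufficient libraries had 93.6, 149, 109.6 and 348 and Th17 sufficient libraries 19.8, 25.6, 21.7 and 57.5 (-2.39, SE 0.51, limma adjusted p = 0.000432). The 960 library was the highest in both of these groups. Cd160 changed by -2.49 in deficient cells (SE 0.51, limma adjusted p = 0.000277). For these 4 genes the unpolarized and polarized libraries did not overlap in either kind of cell.

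Cd44, the hyaluronan receptor that rises on activated and memory T cells, went from 759.6, 1160.5, 1071 and 2313 to 4009.8, 5401, 4995 and 7004 in sufficient cells. All polarized libraries lay above the unpolarized ones (2.11, SE 0.29, limma adjusted p = 4.27e-06). In deficient cells it went from 491, 788, 637 and 1232 to 3642, 2665, 2834 and 3409, also without overlap (2.07, SE 0.29, limma adjusted p = 4.81e-06). Cd101, an immunoglobulin family receptor that dampens T cell activation, stood at 217, 206, 198 and 114 before and at 1192, 738, 612 and 783 after polarization of sufficient cells (2.17, SE 0.26, limma adjusted p = 9.71e-07). In deficient cells the values were 219.6, 215, 179 and 135 before and 688, 438, 964 and 476 after (1.73, SE 0.26, limma adjusted p = 1.25e-05). The groups of Cd101 did not overlap in either case. Cd2, the receptor for CD48 and its kin, rose from 5056 ± 448 to 8848 ± 1026 in sufficient cells (0.80) and from 4726 ± 206 to 5815 ± 671 in deficient cells (0.29, limma adjusted p = 0.00872). The latter call was lost without the 4 libraries numbered as D3TAM957 (adjusted p = 0.0735) or as D3TAM959 (0.053). Cd200r1, the inhibitory receptor for CD200, did not pass in either comparison, with changes of 0.014 (approximate 95% interval -0.32 to 0.34) and 0.16 (-0.17 to 0.49).

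**Figure D3:**
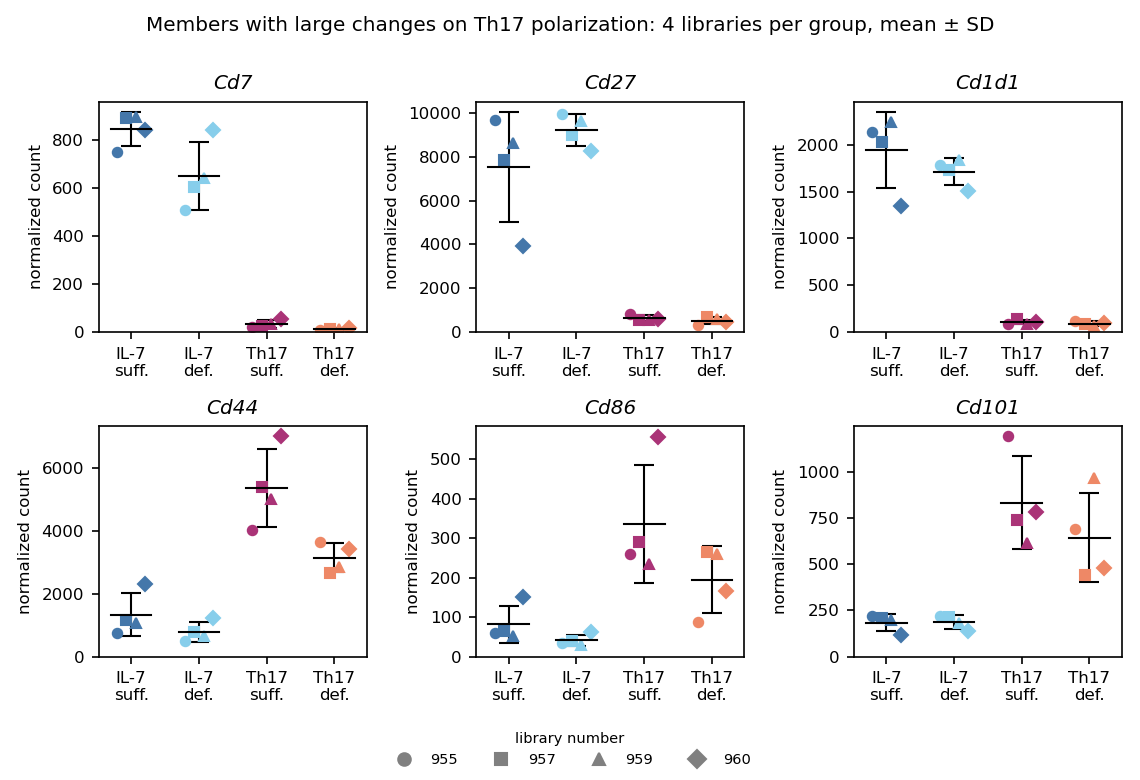
Normalized counts (y axis) of 3 genes with deep falls and 3 with clear rises on polarization in the 4 groups (x axis), with 1 point per library, shaped by library number, and bars for mean ± SD of 4 libraries. Cd7, Cd27 and Cd1d1 drop to near 0 on their axes in both Th17 groups, while Cd44, Cd86 and Cd101 stand above their IL-7 libraries.

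Among ligands and antigen-presentation partners 3 of the 5 tested genes fell and Cd86 rose, in both kinds of cell. Cd1d1, an MHC-like molecule that presents lipids to NKT cells, fell from 2142, 2030.5, 2249 and 1348 to 85.9, 138, 91.3 and 103 in sufficient libraries (-4.20, SE 0.20, limma adjusted p = 1.13e-11). In deficient libraries it fell from 1788, 1734, 1834 and 1503 to 120.3, 82.5, 61.3 and 98.2 (-4.27, SE 0.20, limma adjusted p = 7.07e-12). Its close copy Cd1d2 was low throughout, at 22.8 to 45.2 before and 0.87 to 8.18 after polarization of sufficient cells (-3.04), and changed by -3.33 in deficient cells. Reads may be split between these near-identical genes, so the values of Cd1d2 are uncertain. Cd40lg, the CD40 ligand through which helper T cells license B cells, changed by -1.29 (SE 0.18) and -1.74 (SE 0.18) without overlap.

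Cd86, a ligand of CD28 and CTLA-4 found on antigen-presenting cells and on activated T cells, went from 59.2, 65.4, 51.4 and 150.5 to 259.8, 289, 235 and 557 in sufficient libraries (2.07, SE 0.39, limma adjusted p = 0.000115). The 960 library was the highest of both groups, and the groups did not overlap. In deficient libraries it went from 33.3, 39.6, 29.3 and 61.3 to 87.0, 265, 261 and 167 (2.15, SE 0.39, limma adjusted p = 7.25e-05). Cd274, which encodes PD-L1, did not pass in either comparison (-0.054, approximate 95% interval -0.56 to 0.46, and -0.34, -0.85 to 0.17). BASAL957, at 1664, was the highest library of that gene in IL-7 sufficient cells. In deficient cells the polarized library of each number was below the unpolarized one, and Cd274 passed when only the 8 libraries compared were fitted (limma adjusted p = 0.0241).

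Of the 4 tetraspanins Cd53 and Cd37 fell and Cd82 rose in both kinds of cell, and Cd63 did not pass. Cd53, a tetraspanin of all leukocytes, went from 17081, 17657, 17423 and 16776 to 7906, 7532, 6753 and 12050.3 in sufficient cells (-1.05, SE 0.17, limma adjusted p = 2.01e-05). In deficient cells it went from 17588, 17674, 17585 and 16364 to 2514, 4499, 2718 and 3577 (-2.42, SE 0.17, limma adjusted p = 6.74e-10). Neither pair of groups overlapped, and D3960 was again the highest of the Th17 sufficient libraries. Cd37, another leukocyte tetraspanin, changed little, by -0.20 and -0.27 (limma adjusted p = 0.0272 and 0.00466). The first of these calls was lost with TMM scaling (adjusted p = 0.088) and without BASAL955 (0.0516), BASAL957 (0.0636), D3955 (0.106) or D3957 (0.0559). In all it was lost in 12 of 34 alternative fits. Cd82 rose by 0.78 in sufficient cells, where the groups overlapped, and by 0.51 in deficient cells (limma adjusted p = 0.00226 and 0.0285). The latter was lost without BASALTAM957 (adjusted p = 0.0532), BASALTAM959 (0.0769) or D3TAM960 (0.083). The same held without all libraries numbered as D3TAM955 (adjusted p = 0.0542), as D3TAM957 (0.0706) or as D3TAM959 (0.102).

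Of the 4 complement and self-recognition genes 2 fell and Cd47 rose in sufficient cells, and all 4 fell in deficient cells. Cd46, a cofactor for the cleavage of complement C3b, went from 399 ± 52.0 to 74.0 ± 11.6 in sufficient cells (mean ± SD, n = 4; -2.42) and from 319.9 ± 43.7 to 53.5 ± 15.3 in deficient cells (-2.60). Cd97, an adhesion G protein-coupled receptor that binds the complement regulator CD55, went from 11751, 10704, 11514 and 5206 to 1945, 1581, 1561 and 1602 in sufficient cells (-2.48, SE 0.22, limma adjusted p = 1.59e-08). BASAL960 stood far below the other IL-7 sufficient libraries and still above every polarized library. The change of Cd97 in deficient cells was -2.71 (SE 0.22).

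Cd47, the ligand of SIRP-alpha that protects cells from being engulfed, moved in opposite directions. Sufficient libraries rose from 8831, 9379, 10032 and 10868 to 10930.3, 12061, 11252 and 13319 (0.28, SE 0.10, limma adjusted p = 0.0144), and deficient libraries fell from 7888, 7968, 8837 and 8053 to 5494, 7796, 7187 and 6705 (-0.28, SE 0.10, limma adjusted p = 0.015). Neither pair of groups overlapped. The rise was lost without BASAL955 (adjusted p = 0.0514) or D3960 (0.0535), and without the 4 libraries numbered as D3957 (0.0718). The fall was lost without D3TAM955 (adjusted p = 0.0666), and without the 4 libraries numbered as D3TAM955 (0.0566) or as D3TAM959 (0.0623). The difference between both changes contains the comparison by which the genes were named and was not tested. Cd93, a C-type lectin-like receptor, did not pass in sufficient cells (-0.080, approximate 95% interval -1.36 to 1.20). In deficient cells it went from 22.8, 66.9, 22.9 and 125 to 7.03, 8.33, 13.4 and 30.1, with overlapping groups (-1.79, limma adjusted p = 0.0167), a call lost without BASALTAM960 (adjusted p = 0.0688) or D3TAM955 (0.0523), or without the 4 libraries numbered as D3TAM957 (0.134).

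The sialomucin, GPI-anchored, ecto-enzyme and transport antigens mostly fell: 3 of 4 in sufficient cells, where Cd68 rose, and all 4 in deficient cells. Cd52, a small GPI-anchored peptide of lymphocytes, changed by -0.49 in sufficient and -0.32 in deficient cells, and the sialomucin Cd164 by -0.71 and -0.68. Cd68, a lysosomal glycoprotein best known from macrophages, rose in sufficient cells from 129, 99.7, 115 and 92.1 to 120.5, 125, 154 and 175, with overlapping groups (0.39, limma adjusted p = 0.0362). That call was lost without BASAL957 (adjusted p = 0.0871), BASAL960 (0.106), D3959 (0.0858) or D3960 (0.119). In all it was lost in 11 of 34 alternative fits, among them that of only the 8 libraries compared (adjusted p = 0.0736). In deficient cells Cd68 fell from 132, 104, 106 and 125 to 66.8, 55.8, 62.3 and 52.5, without overlap (-0.97, SE 0.16, limma adjusted p = 3.29e-05). Cd302, a C-type lectin at a mean of 15.4 over the 16 libraries and the closest to the minimum mean of 10 that a row needed for the test, changed by -0.82 and -1.68. The first value, with an adjusted p of 0.035 by limma, did not pass without any 1 of BASAL955, BASAL957, BASAL959, D3957 or D3959 (adjusted p = 0.0532 to 0.129). In all it did not pass in 10 of 33 alternative fits, among them that of only the 8 libraries compared (adjusted p = 0.0768).

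All 5 tested genes listed with the B cell and myeloid antigens fell in both kinds of cell. Cd163l1 and Cd200r4 among them were not used as markers of a cell type. Cd79a, a signalling chain of the B cell receptor, went from 80.7, 80.2, 115 and 145 to 47.4, 25.6, 34.8 and 28.2 in sufficient libraries (-1.60) and from 70.4, 56.3, 74.3 and 80.0 to 19.3, 25.0, 27.8 and 18.1 in deficient libraries (-1.61). Its partner Cd79b changed by -1.53 and -2.19, and Cd72, a B cell coreceptor for semaphorin 4D, by -0.66 and -1.01. Beside these, the 5 restored B cell markers (Cd79a, Cd79b, Cd72, Ighm and Blk) summed to 10452 to 15193 in IL-7 libraries and to 556 to 1504 in Th17 libraries. Most of this sum was the immunoglobulin gene Ighm, which ran from 8646 to 14208 and from 128 to 589. The B cell kinase gene Blk fell in sufficient cells (-1.21, limma adjusted p = 0.0376) and did not pass in deficient cells (0.39, limma adjusted p = 0.49). The part that B cells have in these values was not tested. Cd163l1, a scavenger receptor family gene, went from 408, 315, 575 and 1252 to 86.9, 97.1, 143 and 192 in sufficient libraries (-2.15, SE 0.54, limma adjusted p = 0.00169), without overlap and with the 960 library highest in both groups. In deficient cells its change was -2.40 (SE 0.54, limma adjusted p = 0.000648). Cd200r4, a member of the CD200 receptor family, changed by -0.80 and -0.80 (limma adjusted p = 0.00573 and 0.0055). The first of these was lost without the 4 libraries numbered as D3957 (adjusted p = 0.0604) or as D3960 (0.0692). Of the intracellular pair, Cd2ap changed by -1.01 and -1.22, and Cd2bp2 by 0.37 in sufficient cells, with 0.082 in deficient cells, which did not pass.

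Deletion of Sin3A before polarization was compared in IL-7 cells, whose libraries are not those of the comparison that named the genes. The authors' Th17 fold change did enter the restoring of some IL-7 sufficient values, as told under the processing. Of the 40 genes 0 passed limma's test, while 2.43% of all rows and 3.86% of named rows fell and 2.11% and 0.695% rose. An unadjusted p under 0.05 stood beside 11 genes, all lower in deficient cells, while 10.2% of all rows and 15.3% of named rows were lower at that level. Of the 40 changes 32 were below 0, as were 50% over all rows and 61% over named rows. The median change was -0.19, beside 0 over all rows and -0.06 over named rows. In this comparison libraries of equal number deviated together, which the restoring of some values allowed for. With the number as a block, 4.19% of all rows and 6.58% of named rows were called lower, and 3.0% and 1.12% higher. Of the 40 genes this fit called 5 lower (12.5%) and 0 higher. These were Cd163l1, Cd63, Cd44, Cd93 and Cd52. Receptor complex and coreceptor genes were not among them: their changes were -0.53 for Cd8a, -0.26 for Cd8b1, -0.11 for Cd247, -0.054 for Cd4 and -0.047 for Cd3e, and the nearest to the threshold, Cd3d (-0.18), had limma adjusted p = 0.187 and 0.172 with the block.

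Cd163l1 stood at 408, 315, 575 and 1252 in IL-7 sufficient and at 125, 108, 161 and 544 in IL-7 deficient libraries. The groups overlapped through BASALTAM960, the highest deficient library, and each deficient library was below the sufficient one of its number. The change was -1.57 (limma adjusted p = 0.114, and 0.00183 with the block), and the blocked call held without the libraries of any 1 number (adjusted p = 0.00301 to 0.0321). Cd63, a tetraspanin of lysosomes and secretory granules, went from 15.1, 25.7, 16.01 and 80.3 to 3.80, 7.92, 3.67 and 34.6, a pattern of the same kind at few reads (-1.60, adjusted p = 0.188, and 0.00675 with the block in limma). Without BASALTAM960 alone, Cd163l1 and Cd63 passed without the block as well (adjusted p = 0.0242 and 0.039). Cd44 went from 759.6, 1160.5, 1071 and 2313 to 491, 788, 637 and 1232 (-0.71, adjusted p = 0.182 and 0.0355 with the block). It was lower in the deficient library of every number, while the groups overlapped. With the block, Cd63 and Cd44 were not called without the libraries numbered as BASAL957 (adjusted p = 0.0827 and 0.18) or as BASAL959 (0.052 and 0.172).

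**Figure D4:**
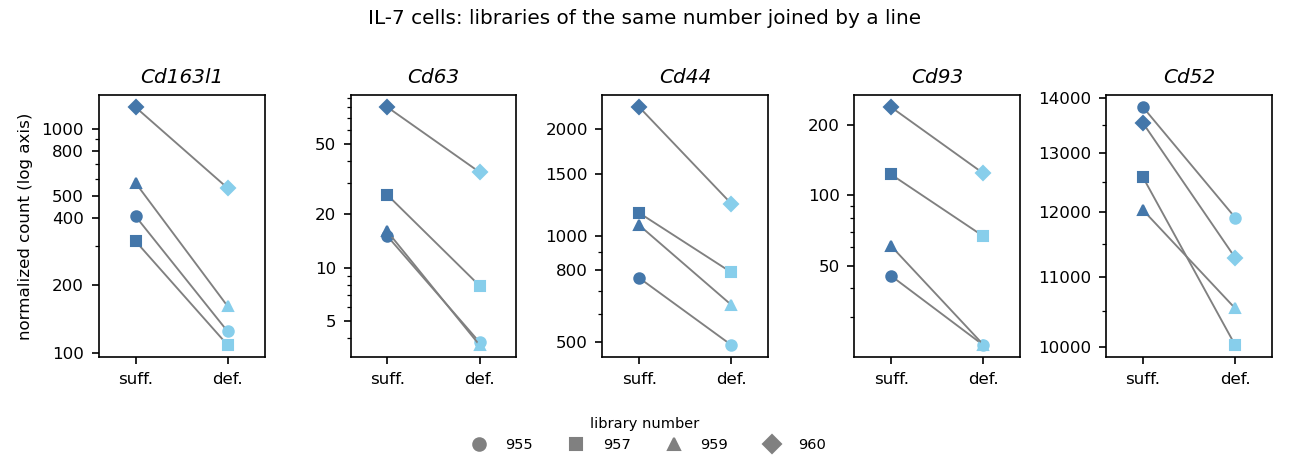
Normalized counts (y axes, log scale) of the 5 genes called lower with the library number as a block, in Sin3A sufficient and deficient IL-7 cells (x axes), with lines joining libraries of equal number. Every line falls, and the 960 libraries lie highest for Cd163l1, Cd63, Cd44 and Cd93.

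Cd93 went from 45.2, 123, 60.7 and 239 in sufficient to 22.8, 66.9, 22.9 and 125 in deficient IL-7 libraries, with 960 highest in each (-1.03, adjusted p = 0.417 and 0.0373 with the block in limma). Cd52 was the only one of the 5 whose groups did not overlap, at 13826, 12578, 12035 and 13533 against 11914, 10032, 10542 and 11286 (-0.25, adjusted p = 0.0824 and 0.042 with the block in limma). Both blocked calls were lost when the libraries of any 1 number were left out (adjusted p = 0.0954 to 0.118 for Cd93 and 0.0886 to 0.207 for Cd52), and without those numbered as BASAL957 or as BASAL959 the block called only Cd163l1 of the 40. Cd37, Cd3d and Cd79a also had deficient libraries all below the sufficient ones, with changes of -0.14, -0.18 and -0.54, and did not pass with or without the block. The share of all rows with such groups was not counted, and 61% of named rows had a change below 0. Only 8 genes had a change above 0, led by Cd27 at 0.37 (approximate 95% interval -0.14 to 0.88). Cd27 was higher in the deficient library of every number and did not pass (limma adjusted p = 0.478).

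A chosen list of surface antigens that have a CD number but another gene symbol was also examined. It was drawn up with earlier results of these data known, so its counts are a description. Of 78 on the list, 48 had a name and restored values. In IL-7 cells 12 of these fell on deletion and 0 rose (20 fell with the block), beside 3.86% of named rows, or 6.58% with the block. Itgae, the alphaE integrin chain known as CD103, went from 461 ± 254 to 113 ± 32.6 (mean ± SD, n = 4; -1.91, limma adjusted p = 0.00696), and Il2rg, the common gamma chain that IL-7 receptors use, from 7678 ± 821 to 5684 ± 289 (-0.43). The other calls with the smallest adjusted p were the transferrin receptor Tfrc (-0.71), Il18r1 (-0.90), the integrin chain Itgal (-0.40), the IL-2 receptor alpha chain Il2ra (-1.15), the peptidase Dpp4 (-0.69), the costimulator Icos (-0.92), Il4ra (-0.79) and the semaphorin Sema4d (-0.53). On polarization 23 of the 48 fell and 20 rose in sufficient cells, beside 36.4% and 40.7% of named rows. In deficient cells 24 fell and 19 rose, beside 51.0% and 28.6% of named rows.

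In Th17 cells the authors' deposited table gives an adjusted p under 0.05 to 24 of the 51 genes (47.1%), beside 51.1% of the 8545 genes with an adjusted p. The median log2 fold change of the 51 was -0.63 in the authors' deposited table, beside -0.50 over all genes named. A change of at least 2 times, a log2 value of -1 or less, stood beside 15 of them, 10 with an adjusted p under 0.05. All of this is the comparison that chose the names. Cd93 had the lowest value in the authors' deposited table, -2.91 (SE 0.80), and low values also stood beside the fatty acid translocase Cd36 (-2.04), the MHC class II invariant chain Cd74 (-1.74) and Cd79b (-1.72).

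**Figure D5:**
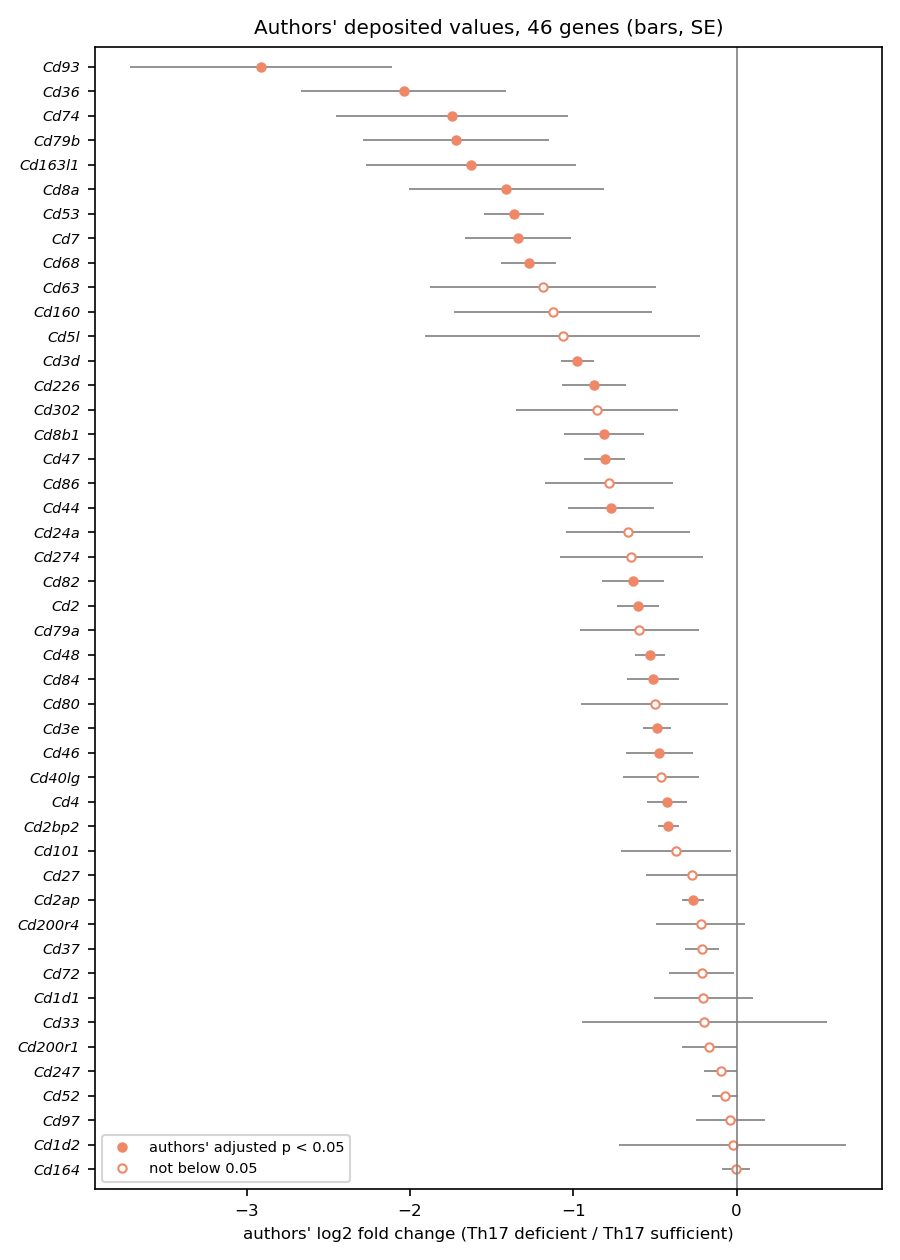
Log2 fold changes of Th17 deficient over Th17 sufficient cells (x axis) for the 46 genes with a joined row (y axis), with bars of 1 SE, all from the authors' deposited table; filled points have an adjusted p under 0.05 there. Cd53, Cd68, Cd3d and Cd47 have short bars away from 0, while Cd5l and Cd93 have the longest bars, of 0.80 or more.

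By level, Cd93 stood at 61.2, 87.9, 48.7 and 246 in Th17 sufficient and at 7.03, 8.33, 13.4 and 30.1 in Th17 deficient libraries, which did not overlap, with the 960 library highest in both. Cd53 stood at 7906, 7532, 6753 and 12050.3 and 2514, 4499, 2718 and 3577 (-1.36, SE 0.18, in the authors' deposited table). Among the receptor genes Cd3d stood at 5686, 5902, 5529 and 6986 in sufficient and 3305, 2886, 3045 and 3028 in deficient libraries, a mean of 50.9% of the sufficient level. The corresponding means were 71.4% for Cd3e, 74.4% for Cd4, 56.9% for Cd8b1 and 93.5% for Cd247, of which the last alone overlapped. Cd8a stood at 37.6% with overlapping groups. Of the 46 genes with Th17 values, deficient libraries lay below all sufficient ones for 20 (43.5%) and overlapped for 26, beside 44.9% below for the 7751 named genes with a joined row.

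The 10 restored genes with the lowest Th17 changes also held Cd79b, at 30.1% of the sufficient mean, Cd163l1 (32.3%) and Cd7 (39.2%). The others among them were Cd68 (41.4%), Cd63 (43.6%) and Cd160 (45.8%). Cd163l1, Cd63 and Cd160 overlapped between the groups. At the other end Cd164 stood at 3319, 3988, 3645 and 4049 and 3603, 3741, 3784 and 3845, with means closer than their spread (3750.3 ± 338 and 3743 ± 103).

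Markers of other cell types that the purified cells could hold were also measured, and their part in these values was not tested. Of 12 myeloid and dendritic cell markers only Cd68 was named and restored, and of 8 NK cell markers Klrk1, Cd160 and Prf1, which summed to 775 to 1589 in Th17 sufficient and 448 to 744 in Th17 deficient libraries. The CD8 pair summed to 231 to 519 and 113 to 196, and 5 of 10 B cell markers to 1084 to 1504 and 556 to 993. In all 3 lists the highest Th17 sufficient library was D3960. In IL-7 sufficient and deficient libraries the sums were 566 to 1156 and 493 to 834 for the NK cell list, 430 to 638 and 351 to 538 for the CD8 pair, and 10452 to 14062 and 14570 to 15193 for the B cell list. Most of the B cell sum was Ighm, at 8646 to 12772 and 13507 to 14208. Other B cell markers did not rise with it: Cd79a ran from 80.2 to 145 and from 56.3 to 80.0, Cd79b had a lower mean in deficient libraries, and Cd72 overlapped. Blk fell on deletion in IL-7 cells from 414 ± 245 to 68.6 ± 29.9 (mean ± SD, n = 4; limma adjusted p = 0.0106), as did Klrk1 with the block (-0.96, limma adjusted p = 0.00584, and 0.117 without the block). Klrk1 rose on polarization in sufficient cells (2.18, limma adjusted p = 1.50e-05) and in deficient cells (2.14, limma adjusted p = 1.64e-05), while Prf1 fell in both (-2.15 and -4.18). In every library these restored markers were above 0, and markers without a name in the table could not be examined.

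For 6 genes the Th17 values could be restored but not the IL-7 values. Cd74 stood at 940.2, 2006, 1894 and 1664 in Th17 sufficient and 599, 300.0, 305 and 737 in Th17 deficient libraries, without overlap, and Cd36 at 23.7, 47.0, 91.3 and 36.1 and 21.1, 8.33, 7.67 and 11.2, also without overlap. The costimulatory ligand Cd80 (279 ± 61.5 and 197 ± 82.6), the sialoglycoprotein Cd24a (479.9 ± 203 and 303 ± 92.1), Cd5l, a secreted scavenger protein of macrophages (52.4 ± 36.6 and 25.1 ± 11.7), and the sialic acid lectin Cd33 (48.9 ± 37.4 and 42.7 ± 27.5) overlapped (mean ± SD, n = 4). No row could be joined to 5 of the names, among them Cd22, Cd164l2, Cd244 and Cd70, for which only the authors' values are known. The authors' deposited table gives -1.18 for the B cell lectin Cd22, -1.32 for Cd164l2, -0.64 for the SLAM family receptor Cd244 and -0.40 for Cd70, the ligand of CD27, none with an adjusted p under 0.05.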

How the data were processed

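The authors deposited 1 table, which holds, per the file headers, DESeq2 output for Th17 deficient against sufficient cells beside 16 library columns: a mean normalized count (a signal averaged over the authors' libraries), a log2 fold change with its error, a test score, and p-values. That mean is not the mean of the 16 libraries: for Cd44 it is 6180 against 2651. It was taken to imply 24 libraries, and which others the authors' fit held is not known. Per the submitters' processing notes, Trim Galore 0.4.4, STAR 2.6, featureCounts, edgeR, DESeq2 and build NCBIM37 were used; their settings were not found in these sources. The deposited library values are a score, since normalized counts had lost their decimal points, and the names stand in another order than the rows. Each value is a whole number of reads times 1 step per library (99.9932% of values, up to a power of 10), so the powers of 10 were restored per row, and 15175 of 17850 rows (85.0%) were settled with a posterior of at least 0.95. Of all values 8.61% needed raising, among them 68 of the 640 values of the 40 genes. Powers that brought the libraries of a group close together were preferred. Rows not settled at first were scored again, allowing libraries of equal number to deviate together, most of all in IL-7 cells. For such rows with a name, the authors' fold change also weighed on the powers of the IL-7 sufficient values. Names were joined to rows by the authors' fold change and its error: 7751 of 8552 were joined, 801 were not, and 2 of 1000 decoys were joined (0.2%). The 16 library columns were matched to samples by name, with the column BASAL_AM959 read as BASALTAM959.

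Values were tested with limma 3.58.1 (R 4.3.3) with a trend on log2(normalized count + 1), with 4 group means over 16 libraries, for the 14145 settled rows with a mean of at least 10. P-values were adjusted by Benjamini-Hochberg over all of these rows, and a call means adjusted p under 0.05. Fold changes of low genes are understated on this scale. Python 3.11.15, numpy 2.4.6, pandas 2.3.3 and scipy 1.17.1 were used for the rest. In IL-7 cells libraries of equal number deviated together (correlations of deviations from the group means 0.43, 0.13, 0.43 and 0.57), so the fit with the number as a block is given beside that comparison. Part of these correlations may come from the restoring, which was not tested. The labels do not say what the number stands for.

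Members, lists and rules were chosen with earlier results of these data known. Values are given for genes called in IL-7 cells, the receptor complex and coreceptors, the 10 largest calls in each direction of each polarization comparison, the 10 lowest Th17 changes, and genes next to a filter or without a joined or settled row. From other CD antigens up to 10 calls in IL-7 cells were taken by adjusted p. Others named were chosen after their values were seen, and 1 gene is not reported here. Alternatives covered pseudocount, filter, scaling, restored rows, trend, libraries in the fit, the block and leaving out libraries.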

Additional observations from a re-analysis of the deposited data

Results flagged for a closer look

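A library far from the other 3 of its group was found for 11 of 160 combinations of gene and group (6.88%), where the rule's nominal rate is about 1 in 20. The share over all rows was not counted. Of these 11, 10 were libraries of number 960. Over all rows tested, BASAL960 was the highest of its group for 37.9% and the lowest for 38.0%. BASALTAM960 was the highest for 28.8% and the lowest for 34.3%, and D3960 for 28.6% and 32.2%. D3TAM960 was the highest for 25.2% and the lowest for 21.1%. Cd63 stood at 80.3 in BASAL960 (15.1 to 25.7 in the others), at 34.6 in BASALTAM960 (3.67 to 7.92) and at 16.4 in D3TAM960 (6.71 to 7.50). Cd86 stood at 150.5 in BASAL960 (51.4 to 65.4) and at 557 in D3960 (235 to 289). Cd163l1 stood at 544 in BASALTAM960 (108 to 161), and Cd160 at 57.5 in D3960 (19.8 to 25.6).

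In the other direction, Cd97 stood at 5206 in BASAL960 (10704 to 11751), Cd40lg at 1584 in BASAL960 (2223 to 2282) and Cd53 at 16364 in BASALTAM960 (17585 to 17674). The remaining library was D3955, where Cd97 stood at 1945 (1561 to 1602). What sets the 960 libraries apart was not tested, and the polarization calls of Cd63, Cd86, Cd160, Cd163l1, Cd97, Cd40lg and Cd53 were the same without them.

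Cd47 moved in opposite directions on polarization, by 0.28 in sufficient and by -0.28 in deficient cells, with no overlap between polarized and unpolarized libraries in either. Both Cd47 calls were lost when some libraries were left out. Cd68 also moved in opposite directions, by 0.39 and -0.97 (limma adjusted p = 0.0362 and 3.29e-05). Its groups overlapped in sufficient cells, where the call was lost without some libraries. These differences contain the comparison by which the genes were named and were not tested.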

How the results depend on the processing

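Over 34 alternatives the count of CD genes called ran from 30 to 40 for polarization of sufficient cells and from 32 to 40 for deficient cells, where 40 came from the fit on all restored rows, which tests 46 genes. Of 36 calls in sufficient cells 30 were kept under every alternative and 6 were lost under some (Cd8a, Cd37, Cd68, Cd302, Cd200r4, Cd47), and of 35 in deficient cells 30 were kept and 5 lost (Cd82, Cd47, Cd2, Cd93, Cd37). No called value changed sign. In IL-7 cells the count was 0 under every alternative but the following, all lower: 5 with the replicate block, 0 to 2 when 1 library or all libraries of a number were left out, and, in alternatives chosen after seeing the data, 3, 1, 1 and 3 with the block and without the libraries numbered as BASAL955, BASAL957, BASAL959 or BASAL960. With the block, polarization of sufficient cells kept 36 calls and that of deficient cells had 36, with Cd8a gained (limma adjusted p = 0.0335). Same-number correlations were 0.069 to 0.15 and 0.049 to 0.22 there, not all above 0.1, so the block is given for these comparisons as an alternative only. In sufficient cells every library correlated best with its own number, and in deficient cells every library did but BASALTAM955, which correlated best with D3TAM957 (0.060).

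Some log2 changes that were not called changed sign when libraries were left out. In IL-7 cells the ranges were -0.17 to 0.19 for Cd101, -0.072 to 0.062 for Cd164, -0.65 to 0.028 for Cd274, -0.18 to 0.025 for Cd4, -0.14 to 0.050 for Cd40lg, -0.0076 to 0.032 for Cd53, -0.0051 to 0.19 for Cd68, -0.11 to 0.022 for Cd84 and -0.12 to 0.27 for Cd97. On polarization they were -0.16 to 0.15 for Cd200r1, -0.44 to 0.30 for Cd274 and -0.56 to 0.36 for Cd93 in sufficient cells, and -0.24 to 0.74 for Cd63 in deficient cells. With the block and 1 number left out, the IL-7 values of opposite sign were -0.023 for Cd101, 0.050 for Cd164, 0.028 for Cd274, 0.011 for Cd4, 0.050 and 0.037 for Cd40lg, -0.0070 for Cd53, -0.0051 for Cd68, 0.0063 for Cd84 and -0.053 for Cd97. On polarization they were -0.13 and -0.12 for Cd63, -0.050 and -0.16 for Cd200r1, 0.30 for Cd274 and 0.053 for Cd93. The cause was not tested.

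The edgeR and DESeq2 alternatives were not run, because the library columns as deposited are not counts. Restoring and joining limit the genes covered, and only genes lower in deficient Th17 cells carry a name.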
